A study of Homo sapiens with 17 samples.

Results

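The comparison described here sets one untreated, proliferating culture of human BJ fibroblasts against another that was sequenced in a different run. BJ cells are foreskin fibroblasts immortalized by expression of hTERT, the catalytic subunit of telomerase, and they were grown in medium with fetal calf serum. The members are the 6 of 17 samples whose titles name a proliferating culture: C1, C2 and C3, each measured by RNA-Seq (poly(A) RNA, the transcript level) and by ribosome profiling (Ribo-Seq, fragments protected by ribosomes in the coding sequence, the translation level). The deposited table gives 1 column for C1 and C2 together, called C12 here, and 1 column for C3, in each assay. Per the study's sample list, C12 belonged to run 1 with the quiescent (Q, serum-depleted) and pre-senescent cells (preS, tamoxifen-inducible RASG12V for 5 days), and C3 belonged to run 2 with the senescent cells (S, the same construct for 14 days) and the transformed cells (Tr, RASG12V with p53 and p16INK4A knockdown and SV40 small-T). All of them express hTERT. RNA-Seq was paired-end in run 1 and single-end in run 2, so culture, run and layout cannot be told apart in any value below. With 1 column on each side there is no spread between cultures, so no test was possible and every difference is a description of these columns.

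Values are FPKM, fragments per kilobase of transcript (RNA-Seq) or of coding sequence (Ribo-Seq) scaled to the library's reads, and the authors had set every value below 1 to 1. The log2 ratio of C3 over C12 was taken in each assay, and translation efficiency (TE) is the log2 ratio of Ribo-Seq over RNA-Seq. Of 9699 transcripts, 5630 (58%) reached 10 FPKM in the higher culture in both assays and were compared. A transcript is called higher or lower when C3 was 2-fold or more above or below C12, and a member of the set that agrees is one called the same way in both assays. Where C12 stood at the floor of 1, the fold is a lower bound.

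One label needed a check before use. The Ribo-Seq sample titled C3.rp carries the condition senescence among its labels, and the sample titled S.rp carries proliferation. Summed over the 38 mitosis genes in the table, the column named C3 held 2120 FPKM in Ribo-Seq and the column named S held 130 FPKM, beside 3142 FPKM in C12. Across 9699 transcripts, log2 C3 Ribo-Seq correlated with C3 RNA-Seq at r = 0.875 and with S RNA-Seq at r = 0.796, while S Ribo-Seq correlated with S RNA-Seq at r = 0.897 and with C3 RNA-Seq at r = 0.780. The columns therefore followed the titles, which were used throughout.

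Fibroblasts make and remodel connective tissue. They secrete fibrillar collagens, which are hydroxylated in the endoplasmic reticulum and cross-linked outside the cell, and they take on contractile genes when they become myofibroblast-like. A growing culture also runs a replication programme under E2F transcription factors, builds ribosomes in the nucleolus, and imports and synthesises amino acids under the transcription factor ATF4. The labels give neither the density nor the passage of the cultures.

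Among the 47 gene lists, collagens (9 of 17 compared) and matrix glycoproteins (9 of 26) had the most genes called higher in C3 in both assays. The ATF4 list had the most called lower (8 of 18), followed by the replication (5 of 29) and NRF2 (5 of 10) lists. The shares over all transcripts compared were 3.41% higher and 1.67% lower. The lists differ in size, and 4 of 6 IGF-binding proteins were called higher. All lists were chosen with earlier results of these data known, so their counts describe and do not support a pattern. In RNA-Seq 253 transcripts were called higher in C3 (4.49% of those compared) and 160 lower (2.84%). Ribo-Seq gave 463 higher (8.22%) and 422 lower (7.5%). In both assays 192 were higher (3.41%) and 94 were lower (1.67%), while 3 were past 2-fold in opposite directions. Centring each assay on its median gave 227 higher and 62 lower in both, so the balance of the calls depends on the scaling. The medians before centring were -0.10 (RNA-Seq) and -0.07 (Ribo-Seq) on the log2 scale. The ratios of the 2 assays correlated across the 5630 transcripts (Pearson's r = 0.738, Spearman's rho = 0.701). The columns of both assays carry the same culture names, and the labels do not say whether both libraries came from the same dish. Of 413 transcripts past 2-fold in RNA-Seq, 398 (96.4%) had the same direction in Ribo-Seq and 286 (69.2%) were past 2-fold there too, against 286 of 885 (32.3%) for those past 2-fold in Ribo-Seq.

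**Figure D1:**
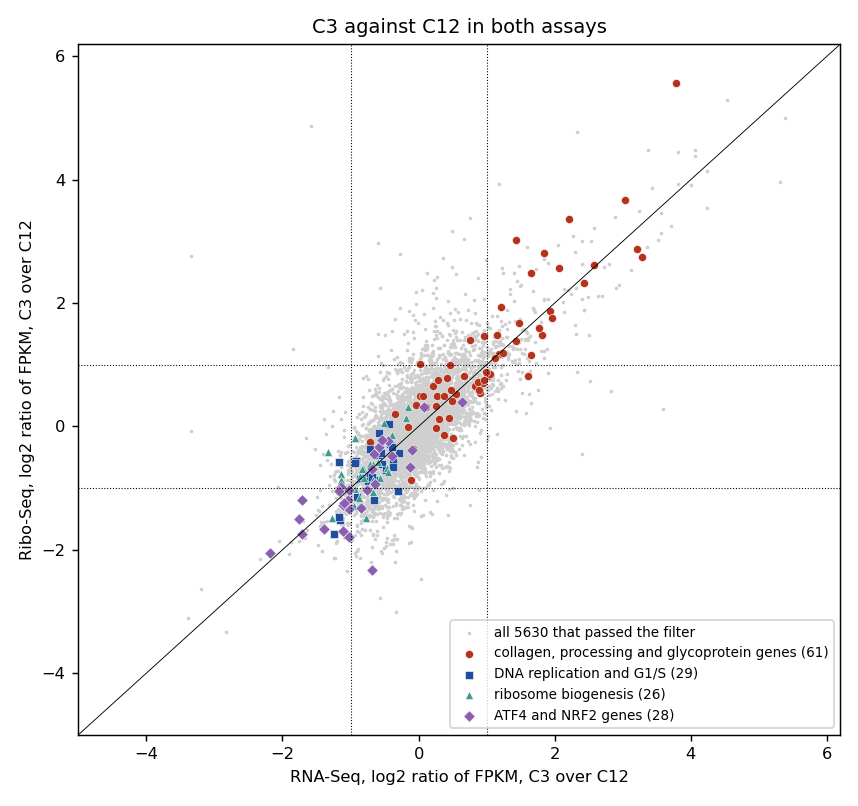
Log2 ratio of FPKM in C3 over C12 in RNA-Seq (x axis) and Ribo-Seq (y axis) for the 5630 transcripts compared; dotted lines mark 2-fold and the solid line equal ratios. Matrix genes (61) lie mostly in the upper right, and replication (29), ribosome biogenesis (26) and ATF4 and NRF2 genes (28) mostly in the lower left.

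The same counts were taken for the study's treatments. With the same level filter in a single assay, 7.13% of transcripts were past 2-fold between C3 and C12 in RNA-Seq and 16.9% in Ribo-Seq. Quiescence against C12 gave 6.1% and 15.8%, and pre-senescence against C12 gave 3.46% and 13.7%. Larger shares came from senescence against C3, at 19.5% and 28.2%. Transformation against C3 gave 9.09% in RNA-Seq and 11.3% in Ribo-Seq. These comparisons share their control columns and are given side by side only. The columns also differ in pooling: C12, Q and the RNA-Seq column of preS are pooled from replicate samples, and the others are not. The part of pooling in these shares was not tested.

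The filter and the threshold shape which transcripts count as members. Of the 192 higher members, 108 passed the filter through C3 alone in at least 1 assay, and 10 had C12 at the floor in at least 1 assay. Of the 94 lower members, 41 passed through C12 alone and 0 had C3 at the floor. When 10 FPKM was asked of the geometric mean of both cultures, 124 were higher and 70 lower. Just inside the threshold stood SLC9B2 (RNA-Seq 1.00, Ribo-Seq 1.68), IGFBP5 (1.43 and 1.00) and CD109 (1.00 and 1.28), as log2 ratios. Just outside it stood KDELR3 (1.24 and 0.995), PKIG (0.995 and 2.70) and TMEM2 (1.23 and 0.987).

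Matrix genes made up the largest block of higher members among the lists. Most members were in no list, 140 of the 192 higher and 63 of the 94 lower, as were 4884 of the 5630 transcripts compared. The matrix lists also hold contractile, YAP/TEAD, TGF-beta and BMP genes. Over 9 matrix lists together, 128 genes passed the filter, and 40 (31.2%) were higher in both assays against 3.41% of all transcripts compared, while 4 (3.12%) were lower. Collagens led: 9 of the 17 that passed, out of 20 in the table, were higher and 0 were lower, with median log2 ratios of 1.18 in RNA-Seq and 1.17 in Ribo-Seq. COL1A1, a chain of type I collagen, went from 371 FPKM in C12 to 1328 FPKM in C3 in RNA-Seq and from 588 to 4134 FPKM in Ribo-Seq. COL1A2, the partner chain, went from 384 to 1611 FPKM in RNA-Seq and from 786 to 4670 FPKM in Ribo-Seq. For both type I chains, C3 was the highest of the 6 columns in each assay. COL3A1, the type III fibril chain, stood at 55.9 FPKM in C12 and 214 FPKM in C3 in RNA-Seq, and at 58.9 and 215 FPKM in Ribo-Seq. COL5A3, a minor fibril chain, stood at 1.57 and 12.8 FPKM in RNA-Seq, but transformed cells held still more, 26.8 FPKM. The network-forming COL4A1 had log2 ratios of 1.47 and 1.68, and COL7A1, the anchoring fibril chain, 1.43 and 3.02. The type VI chains fell short of the threshold, as COL6A1 at 0.94 and 0.70 shows. These 3 collagens were named after their values were seen, as were COL11A1 and COL13A1, which were the only collagens below C12 in both assays among those compared, at -0.72 and -0.11 in RNA-Seq.

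Collagen-processing enzymes were higher in 5 of 18, against 3.41% of all transcripts compared, with medians of 0.69 and 0.65. LOX, the lysyl oxidase that starts cross-linking, stood at 52.0 FPKM in C12 and 178 FPKM in C3 in RNA-Seq, and at 185 and 560 FPKM in Ribo-Seq. Senescent cells held more LOX than C3, 208 and 988 FPKM. LOXL4, a related oxidase, was 5.38-fold higher in RNA-Seq and 5.01-fold in Ribo-Seq. P4HA1, a prolyl hydroxylase subunit, was 3.15-fold and 2.22-fold higher, and BMP1, the procollagen C-proteinase, 2.32-fold and 3.82-fold. P4HB, the other hydroxylase subunit and a general folding enzyme, had log2 ratios of 0.30 and 0.12.

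Among matrix glycoproteins and proteoglycans 9 of 26 were higher and 0 lower, and 23 of 26 lay above C12 in both assays, against 31.9% of all transcripts. DCN, the collagen-binding proteoglycan decorin, stood at 27.6 FPKM in C12 and 164 FPKM in C3 in RNA-Seq, and at 64.9 and 396 FPKM in Ribo-Seq. LUM, lumican, stood at 33.6 and 155 FPKM in RNA-Seq and at 89.9 and 922 FPKM in Ribo-Seq. TGFBI, a secreted TGF-beta-induced protein, was 9.23-fold higher in RNA-Seq and 7.31-fold in Ribo-Seq, and the other 5 columns lay between 6.52 and 10.5 FPKM in RNA-Seq. MFAP5, a microfibril protein, was at the floor of 1 FPKM in C12 in both assays and at 13.7 and 47.4 FPKM in C3, so at least 13.7-fold and 47.4-fold higher. The main scaffold proteins did not follow: FN1, fibronectin, had log2 ratios of -0.34 and 0.20, and FBN1, fibrillin-1, 0.03 and 0.49.

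Of 15 matrix proteases and inhibitors, 6 were higher and 1 was lower, against 3.41% and 1.67% of all transcripts compared. TIMP1, a metalloproteinase inhibitor, stood at 81.1 FPKM in C12 and 430 FPKM in C3 in RNA-Seq and at 118 and 492 FPKM in Ribo-Seq. The inhibitors TIMP3 and SERPINE2 and the proteases PLAT and ADAMTS1 were among the others called higher. SERPINE2, a protease inhibitor bound to the matrix, was 2.45-fold and 2.74-fold higher. The stromelysin MMP3 was the one called lower, from 399 to 43.4 FPKM in RNA-Seq and from 1108 to 178 FPKM in Ribo-Seq. C3 had the lowest MMP3 of the 6 columns in both assays, and pre-senescent cells the highest in RNA-Seq, 2190 FPKM. MMP1, the collagenase, had log2 ratios of -0.70 and -0.93 and missed the threshold. Integrins and laminins gave 3 of 15 higher, against 3.41% of all: ITGAV, LAMA4 and LAMA5.

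**Figure D2:**
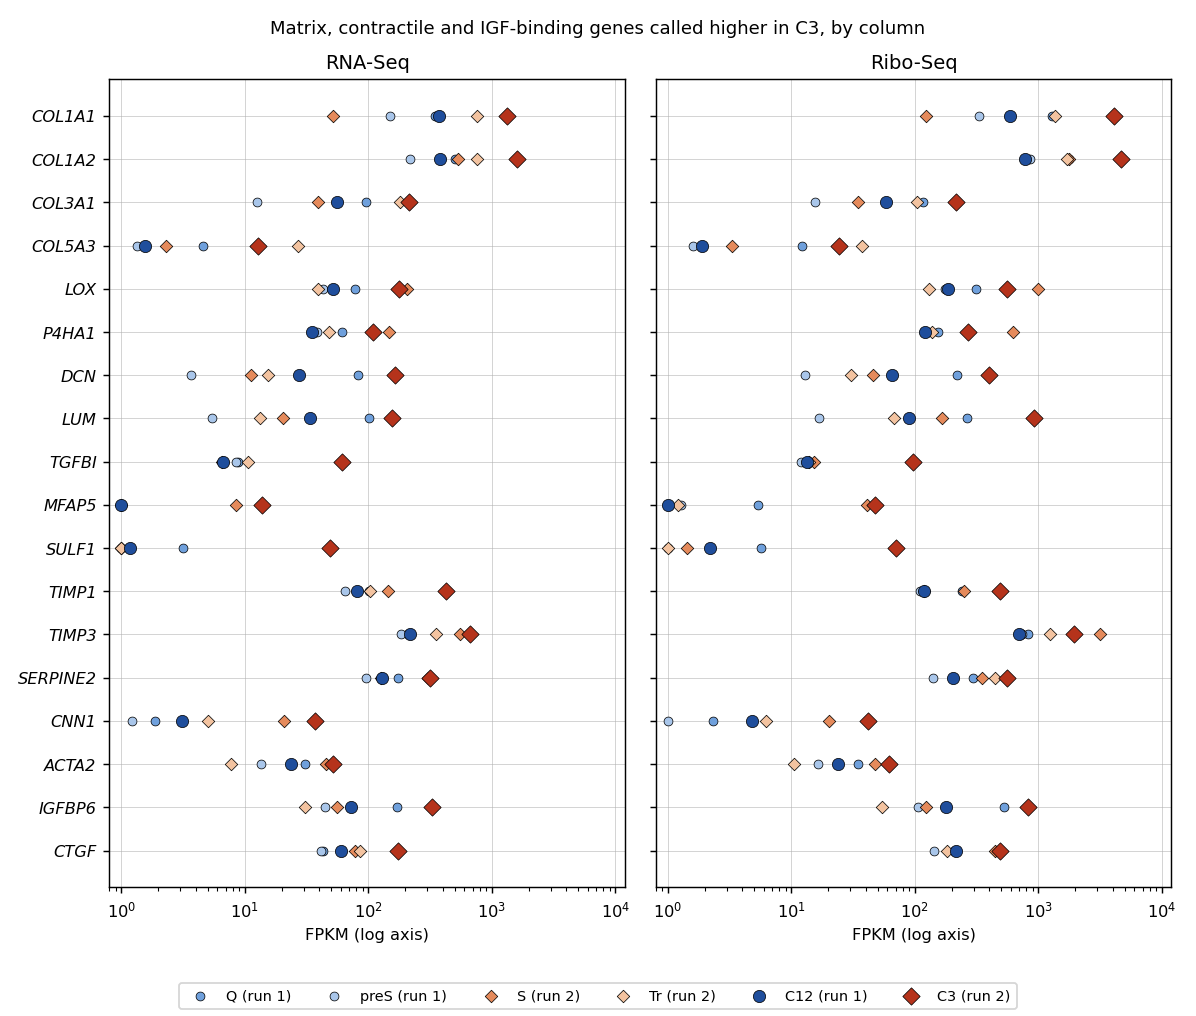
FPKM on a log axis in the 6 columns of RNA-Seq (left) and Ribo-Seq (right) for 18 matrix, contractile, IGF-binding and signalling genes called higher in C3; circles are run 1 columns, diamonds run 2 columns, large symbols C12 and C3. C3 is rightmost for most genes, while S and Tr of the same run are spread on both sides of C12, as for COL1A1 (S at 51.6 FPKM in RNA-Seq).

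Contractile genes split between paralogues. Of 16 smooth-muscle contractile genes, 5 were higher (ACTA2, CNN1, LMOD1, CALD1 and MYLK) and ACTG2 was lower. Over all transcripts compared, 3.41% were higher and 1.67% lower. CNN1, the actin-binding protein calponin, stood at 3.13 FPKM in C12 and 36.9 FPKM in C3 in RNA-Seq, and at 4.79 and 42.2 FPKM in Ribo-Seq. ACTA2, alpha smooth-muscle actin, stood at 23.8 and 52.0 FPKM in RNA-Seq and at 23.9 and 62.0 FPKM in Ribo-Seq. ACTG2, the enteric gamma actin, went the other way, from 22.4 to 2.13 FPKM in RNA-Seq and from 42.2 to 4.89 FPKM in Ribo-Seq. Only reads that mapped to 1 transcript were counted, and actin genes are close in sequence, so the values of both actins are uncertain. TAGLN, transgelin, had log2 ratios of 0.44 in RNA-Seq and -0.66 in Ribo-Seq.

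Smooth-muscle genes are known for CArG boxes, the element bound by serum response factor, and the promoters of both actins are shown because they were called in opposite directions. The 250 bases before the start site were taken from RefSeq (GRCh38.p14), read 5′ to 3′ on the gene's strand, and CArG boxes (a palindrome, so 1 strand covers both) are in capitals. ACTG2 holds 2, starting at -110 and -73 from the start site, at chr2:73892758-73893007 (plus strand). ACTA2 holds none in this window, at chr10:88991338-88991587 (minus strand). The window covers 1 start site of ACTA2, and whether these cells use that start was not checked. A box before another start would be missed, so ACTA2 cannot be said to lack the element.
ACTG2: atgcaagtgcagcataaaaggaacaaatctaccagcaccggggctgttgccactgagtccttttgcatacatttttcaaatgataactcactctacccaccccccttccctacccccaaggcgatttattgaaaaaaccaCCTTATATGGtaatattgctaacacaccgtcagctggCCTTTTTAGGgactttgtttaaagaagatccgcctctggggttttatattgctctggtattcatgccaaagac
ACTA2: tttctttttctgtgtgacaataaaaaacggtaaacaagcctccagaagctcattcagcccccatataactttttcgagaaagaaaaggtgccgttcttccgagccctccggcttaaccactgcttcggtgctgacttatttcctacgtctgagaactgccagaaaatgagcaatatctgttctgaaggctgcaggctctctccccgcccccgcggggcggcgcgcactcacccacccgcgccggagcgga
A CArG box is present in 1.16% of 35116 promoters of this length, and in 4 of 14 contractile genes with a promoter in the table. No other motif was searched in these promoters. A match describes letters and not binding.

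Secreted regulators of growth accompanied the matrix genes. IGF-binding proteins, which hold insulin-like growth factors away from or near their receptor, lay above C12 in both assays in 6 of 6, and 4 were called higher. Of all transcripts compared, 31.9% lay above C12 in both and 3.41% were called higher. IGFBP6 stood at 72.2 FPKM in C12 and 330 FPKM in C3 in RNA-Seq, and at 178 and 823 FPKM in Ribo-Seq. IGFBP2 was 5.4-fold and 3.7-fold higher, IGFBP3 3.27-fold and 2.58-fold. IGFBP5 was near the threshold in Ribo-Seq (2.01-fold). CTGF, a matricellular target of YAP/TEAD, was 2.88-fold and 2.28-fold higher, and DKK1, a WNT antagonist on the same list, 2.09-fold and 2.28-fold. CYR61, the best-known partner of CTGF, had log2 ratios of -0.15 and -0.52, and JUB and FJX1 of that list were called lower, so the YAP/TEAD list gave 2 higher and 2 lower of 12. GREM1, a BMP antagonist, was 2.73-fold and 2.38-fold higher, while the BMP targets ID1 and ID3 had log2 ratios of -0.04 and -0.33 in RNA-Seq. TGFB1 itself had ratios of 0.47 and 0.70, and the TGF-beta list of 5 genes gave 0 calls in both assays, with 1 past 2-fold in Ribo-Seq alone.

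The 12 higher members with the largest difference in the assay that differed less were SULF1, APOD, SLC38A11, MALL, PODN, KRT19, SERPING1, DSP, WFDC1, MFAP5, SRGN and KRT34. SULF1, which trims sulfates from heparan sulfate outside the cell, stood at 1.18 FPKM in C12, 49.1 in C3, 3.17 in Q, 1.00 in preS, 1.00 in S and 1.00 in Tr by RNA-Seq. By Ribo-Seq it stood at 2.19, 70.0, 5.65, 1.00, 1.43 and 1.00 FPKM in the same order. C3 alone held SULF1 above 6 FPKM in either assay. APOD, an apolipoprotein common in quiet fibroblasts, stood at the floor in C12 by RNA-Seq and at 23.1 FPKM in C3, with 14.2 FPKM in S. KRT19, DSP and KRT34 are epithelial or hair keratin and desmosome genes. KRT19 stood at 1.00 FPKM in C12 and 39.8 in C3 by RNA-Seq, and at 5.83 and 91.1 FPKM by Ribo-Seq.

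Beside these values, the markers of other cell types were as follows. All 9 fibroblast markers were in the table, and 5 of them, 4 of which also stand in the matrix lists (COL1A1, COL1A2, DCN and LUM), were called higher and 0 lower, with medians of 1.73 and 2.56. Their summed RNA-Seq level was 5938 FPKM in C12 and 7302 FPKM in C3, the highest of the 6 columns, the lowest being 5210 FPKM in S. VIM, the intermediate filament vimentin, made up most of that sum in C12 and was lower in C3 (4334 and 2956 FPKM), with a log2 ratio of -0.55. Of 7 epithelial markers 3 were in the table (KRT8, KRT18 and KRT19), with a sum of 198 FPKM in C12, 313 FPKM in C3 and 105 to 208 FPKM in the other columns. KRT18 made up 186 and 257 FPKM of it. Of 5 leukocyte markers 2 were in the table, with sums of 84.6 and 73.8 FPKM, nearly all of it CD68, a lysosomal gene that fibroblasts also express. CD14 stood at 1.00 FPKM in C12 and 1.43 FPKM in C3. The melanocyte list had 1 gene in the table, MITF, at 4.43 and 8.35 FPKM. No endothelial or striated muscle marker was in the table. The part of other cells in the higher keratins was not tested.

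Replication genes were lower in C3, mostly by less than 2-fold. In the DNA replication and G1/S list, 28 of 29 genes that passed lay below C12 in both assays, against 44.6% of all transcripts compared. The medians were -0.69 in RNA-Seq and -0.70 in Ribo-Seq. At 1.5-fold 14 of 29 were lower in both, against 9.95% of all, and at 2-fold 5 were lower and 0 higher. MCM7, a subunit of the replicative helicase, stood at 131 FPKM in C12 and 58.2 FPKM in C3 in RNA-Seq, and at 271 and 97.4 FPKM in Ribo-Seq. MCM5 stood at 98.5 and 44.1 FPKM in RNA-Seq and MCM2 at 53.5 and 26.2 FPKM. CDT1, which loads the helicase, was 2.36-fold and 3.36-fold lower, and UHRF1, which recruits DNA methylation to new strands, 2.07-fold and 3.39-fold lower. For these 5 genes C3 was not the lowest column: S lay between 1.00 and 5.50 FPKM in RNA-Seq, and Q and Tr lay near C3. With each assay centred, 3 of the 5 remained past 2-fold. In bulk RNA, fewer cycling cells and less of these RNAs per cell cannot be told apart.

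E2F sites are the best-known element of replication gene promoters, and for that reason the promoters of MCM7, CDT1, UHRF1 and MCM2, 4 of the 5 called genes, are shown. In the 250 bases before the start (RefSeq, GRCh38.p14, 5′ to 3′ on the gene's strand), the letters TTTCCCGC on either strand are in capitals. The match starts at -187 in MCM7 (chr7:100101398-100101647, minus strand), at -35 in CDT1 (chr16:88803539-88803788, plus strand) and at -14 in UHRF1 (chr19:4909251-4909500, plus strand), and MCM2 (chr3:127598161-127598410, plus strand) has none in this window.
MCM7: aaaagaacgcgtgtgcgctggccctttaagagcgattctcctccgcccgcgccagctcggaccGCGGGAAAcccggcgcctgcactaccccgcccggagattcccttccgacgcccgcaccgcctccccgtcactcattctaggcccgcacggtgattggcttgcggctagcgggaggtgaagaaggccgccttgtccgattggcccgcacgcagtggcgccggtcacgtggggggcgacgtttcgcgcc
CDT1: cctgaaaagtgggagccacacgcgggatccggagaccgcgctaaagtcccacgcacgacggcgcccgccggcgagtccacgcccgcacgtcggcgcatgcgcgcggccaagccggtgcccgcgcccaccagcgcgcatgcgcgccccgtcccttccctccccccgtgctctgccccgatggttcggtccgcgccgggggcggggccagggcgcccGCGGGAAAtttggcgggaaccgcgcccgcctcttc
UHRF1: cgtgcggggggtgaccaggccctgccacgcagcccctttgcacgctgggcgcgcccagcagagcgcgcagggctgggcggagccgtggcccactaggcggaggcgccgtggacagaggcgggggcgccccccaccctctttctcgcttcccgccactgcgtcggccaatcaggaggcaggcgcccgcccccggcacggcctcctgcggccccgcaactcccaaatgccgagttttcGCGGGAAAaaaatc
MCM2: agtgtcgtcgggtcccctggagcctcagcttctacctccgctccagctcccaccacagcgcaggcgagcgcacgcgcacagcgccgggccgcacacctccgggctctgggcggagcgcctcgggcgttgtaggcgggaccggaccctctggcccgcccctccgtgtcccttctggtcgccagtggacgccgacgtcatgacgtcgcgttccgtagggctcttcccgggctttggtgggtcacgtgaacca
These letters occur in 1.39% of 35116 promoters and in 9 of 30 promoters of the list. No second motif was searched here. The match describes letters and not binding.

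Mitosis genes were closer to equal. Of 36 that passed, 29 lay below C12 in both assays, 2 were called lower and 0 higher, with medians of -0.57 and -0.45. The shares over all transcripts compared were 44.6% below C12 in both and 1.67% called lower. CDC20, the activator of the anaphase-promoting complex, stood at 215 FPKM in C12 and 86.2 FPKM in C3 in RNA-Seq, and at 250 and 104 FPKM in Ribo-Seq. FOXM1, a transcription factor of the G2/M genes, was 2.28-fold and 2.54-fold lower. CDK1, the mitotic kinase, stood at 37.1 and 35.1 FPKM in RNA-Seq and at 80.9 and 96.7 FPKM in Ribo-Seq. CCNA2, cyclin A2, stood at 39.9 and 43.2 FPKM in RNA-Seq. Senescent cells held 1.00 and 1.02 FPKM of CDK1 and CCNA2 in RNA-Seq, below every other column. CDKN1A and CDKN2A were named after their values were seen. CDKN1A, the CDK inhibitor p21, was 2.12-fold higher in RNA-Seq and 1.73-fold in Ribo-Seq, at 172 FPKM beside 814 FPKM in S. CDKN2A, the gene of p16INK4A, lay below C12 on the 1 transcript kept for it, with log2 ratios of -1.35 and -0.54. Whether that transcript encodes p16INK4A was not checked. CCND1, cyclin D1, had log2 ratios of 0.33 and 0.47.

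Nucleolar ribosome biogenesis genes were lower, also mostly by less than 2-fold. Of 26 nucleolar genes, 23 lay below C12 in both assays and 16 were lower by 1.5-fold in both, with medians of -0.75 and -0.72. Over all transcripts compared, these shares were 44.6% and 9.95%. EBNA1BP2, a nucleolar assembly factor, passed 2-fold in both, from 156 to 64.4 FPKM and from 311 to 111 FPKM. NOP56, a snoRNP core protein, stood at 119 FPKM in C12 and 62.6 FPKM in C3 in RNA-Seq. FBL, fibrillarin, stood at 173 and 78.4 FPKM. Of 81 cytosolic ribosomal proteins, 0 were called in both assays, and the medians were -0.15 and -0.02. Centring made 2 of them higher in both. The translation factors of the 5′TOP list, whose translation follows mTOR, gave 0 calls in 18, with EEF1A1 at 3018 and 2848 FPKM. Mitochondrial ribosomal proteins gave 0 of 69 in both assays, though 46 lay below C12 in both (medians -0.45 and -0.43), against 44.6% of all. Proteasome subunits gave 0 of 37, glycolysis 0 of 15 and sterol synthesis 0 of 18.

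Amino acid and stress genes controlled by ATF4 were lower. Of 18 genes of the list that passed, 8 were lower in both assays and 0 higher, with medians of -0.89 and -1.03, and 16 lay below C12 in both. Of all transcripts compared, 1.67% were called lower and 44.6% lay below C12 in both. Centring left 4 of the 8. PHGDH, the first enzyme of serine synthesis, stood at 156 FPKM in C12 and 47.5 FPKM in C3 in RNA-Seq, and at 289 and 86.7 FPKM in Ribo-Seq. TRIB3, a pseudokinase induced by ATF4, stood at 34.1 and 7.49 FPKM in RNA-Seq, the largest difference of the list in that assay. DDIT4, an inhibitor of mTOR, was 3.29-fold and 2.29-fold lower, and GPT2, a mitochondrial alanine transaminase, 2.16-fold and 3.24-fold. SLC7A11, SLC7A5 and SLC3A2, which form the cystine and large neutral amino acid transporters, and PSAT1 completed the 8. ATF4 itself had 211 and 131 FPKM of RNA and 65.7 and 13.1 FPKM of footprints, so its TE was lower by 1.64 on the log2 scale. Its translation is known to be released by upstream reading frames when eIF2 is phosphorylated. In both assays S and Tr lay below Q and preS for ATF4, TRIB3 and PHGDH, but not for DDIT4, GPT2, ASNS or CHAC1. Of all transcripts compared, 7.94% had S and Tr below Q and preS in both assays.

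NRF2 antioxidant genes were lower in 5 of 10 and below C12 in both assays in 10 of 10, against 1.67% and 44.6% of all. The medians were -0.93 and -1.26. Centring left 3 of the 5. NQO1, a quinone reductase, stood at 298 FPKM in C12 and 114 FPKM in C3 in RNA-Seq, and at 1185 and 375 FPKM in Ribo-Seq. OSGIN1, PGD and ME1, the last 2 being sources of NADPH, were 3.4-fold, 2.16-fold and 2.14-fold lower in RNA-Seq, and SRXN1 completed the 5. HMOX1, heme oxygenase 1, had log2 ratios of -0.68 in both assays.

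Signalling lists were short and gave calls in both directions. Of all transcripts compared, 3.41% were called higher and 1.67% lower. DUSP4 and EPHA2 of the ERK feedback list were lower (2 of 8), with DUSP4 at 34.5 FPKM in C12 and 15.5 FPKM in C3 in RNA-Seq. DUSP6, the phosphatase most tied to ERK, had log2 ratios of 0.49 and -0.20. IL11, a cytokine of activated fibroblasts, was called lower, 1 of the 3 cytokines and chemokines compared. It went from 26.7 to 9.62 FPKM in RNA-Seq and from 33.9 to 8.98 FPKM in Ribo-Seq. Of 12 p53 targets, ZMAT3 was higher and GDF15, a stress cytokine, was lower. MDM2, the p53 inhibitor, had ratios of 0.46 and 1.28. Of 13 growth factors and receptors, FGF5 was higher, at 29.8 FPKM in C12 and 62.0 FPKM in C3 in RNA-Seq. FOXF2, a mesenchymal transcription factor, was 2.33-fold and 3.71-fold lower, while TWIST1 and PRRX1 had log2 ratios of -0.16 and 0.35 in RNA-Seq. LIPA, the lysosomal acid lipase, was 4.41-fold and 3.61-fold higher, while the respiratory chain gave 2 higher of 74 (COX6A1 and COX7A1), a share below that of all transcripts, with medians of -0.20 and 0.09.

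The 12 lower members with the largest difference in the assay that differed less were ACTG2, TRPA1, MMP3, TOX2, TRIB3, AIM1, TFPI2, FZD8, IGF2BP3, PHGDH, SLCO4A1 and THOC6. TRPA1, an irritant-sensing cation channel, stood at 14.5 FPKM in C12, 2.03 in C3, 26.1 in Q, 19.4 in preS, 1.00 in S and 30.8 in Tr by RNA-Seq. Thus C3 and S were low and the other 4 columns were high. TOX2, a chromatin protein, went from 66.0 to 13.1 FPKM in RNA-Seq and from 44.1 to 9.95 FPKM in Ribo-Seq, again with S low at 8.73 FPKM. IGF2BP3, an RNA-binding protein of growing and fetal cells, stood at 11.7 and 3.45 FPKM in RNA-Seq, and C3 was the lowest of the 6 columns in both assays.

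**Figure D3:**
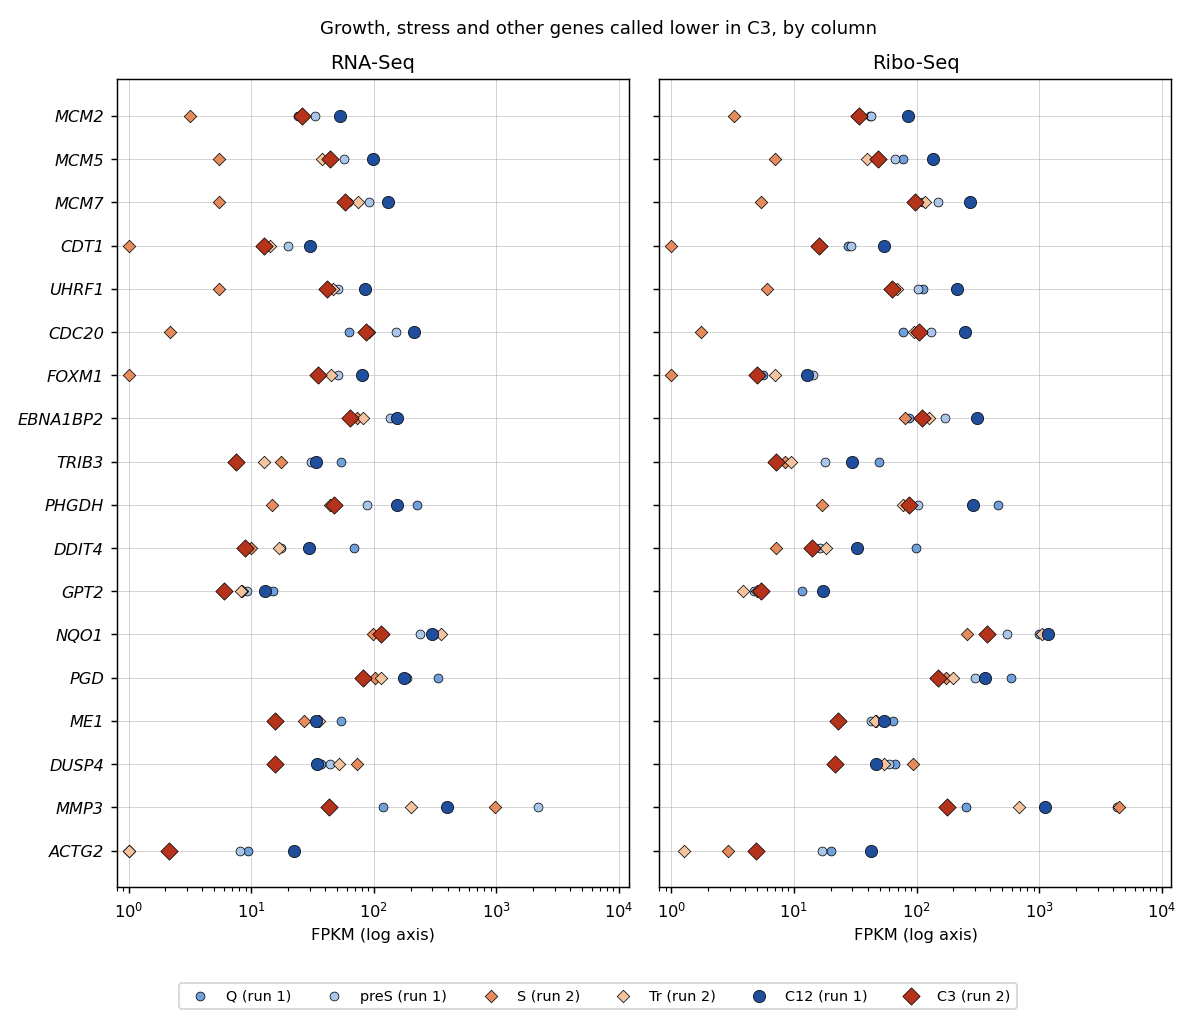
FPKM on a log axis in the 6 columns of RNA-Seq (left) and Ribo-Seq (right) for 18 genes called lower in C3; circles are run 1 columns, diamonds run 2 columns, large symbols C12 and C3. C3 lies left of C12 for each gene, and S lies further left for replication and mitosis genes, as for CDC20 (2.19 FPKM in S, 86.2 FPKM in C3, RNA-Seq).

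Whether these differences followed the run was examined in the 4 columns that the ratio does not use. Among the 192 higher members, S and Tr of run 2 both exceeded Q and preS of run 1 in both assays in 39 (20.3%), against 8.69% of all transcripts compared. Among the 94 lower members, S and Tr both lay below Q and preS in both assays in 35 (37.2%), against 7.94% of all. These columns differ in treatment as well as in run, so neither share measures the run alone. C3 was the highest of the 6 columns in both assays in 103 of the 192 (53.6%), against 5.68% of all, and the lowest in 21 of the 94 (22.3%), against 5.22% of all; the call itself takes part in these positions.

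TE calls used a stricter filter than the calls in either assay, so their counts are not ranked. With no level filter, TE gave 565 higher and 375 lower, against 471 and 290 in RNA-Seq and 1003 and 797 in Ribo-Seq. Of 4598 transcripts with 10 FPKM or more in all 4 values, TE was higher in C3 in 107 (2.33%) and lower in 50 (1.09%). In 95 of the 107 and 46 of the 50 the RNA-Seq ratio was under 2-fold. The TE of S and Tr exceeded that of Q and preS in 64 of the 107 (59.8%), against 34.1% of all, and lay below it in 41 of the 50 (82%), against 24.8% of all.

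MIF, a small secreted cytokine, had the largest TE difference, 6.44 on the log2 scale. Its footprints stood at 34.6 FPKM in C12, 79.2 in Q and 47.6 in preS, and at 1008 FPKM in C3, 575 in S and 505 in Tr. Its RNA went the other way, 300 FPKM in C12, 314 in Q and 271 in preS against 101 in C3, 105 in S and 99.2 in Tr. Thus all 3 columns of run 2 lay apart from all 3 of run 1 in both assays. MT1E, a zinc-binding metallothionein, TAF13, SCOC and USMG5 also had higher TE in S and Tr than in Q and preS, and so had TMSB4X, thymosin beta 4, with 511 FPKM of footprints in C12 and 2362 FPKM in C3 at RNA levels of 173 and 178 FPKM. Metallothioneins, MIF and RPSA have near-identical copies or pseudogenes in the genome, and under unique mapping their values are uncertain. RPSA, a 40S ribosomal protein, had 52.6 FPKM of RNA in C12 and 201 FPKM in C3 at footprints of 79.2 and 78.0 FPKM. CDKN1B, the CDK inhibitor p27, had 70.3 FPKM of footprints in C12 and 25.9 FPKM in C3 at RNA levels of 12.8 and 17.4 FPKM. EIF5, BLCAP and ATF4 had lower TE without both S and Tr lying below both Q and preS. For ATF4 this rested on a TE of -2.78 in Tr and -2.80 in Q. In each assay alone, ATF4 in S and Tr lay below Q and preS. Whether library preparation or the run has a part in the TE differences was not tested.

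**Figure D4:**
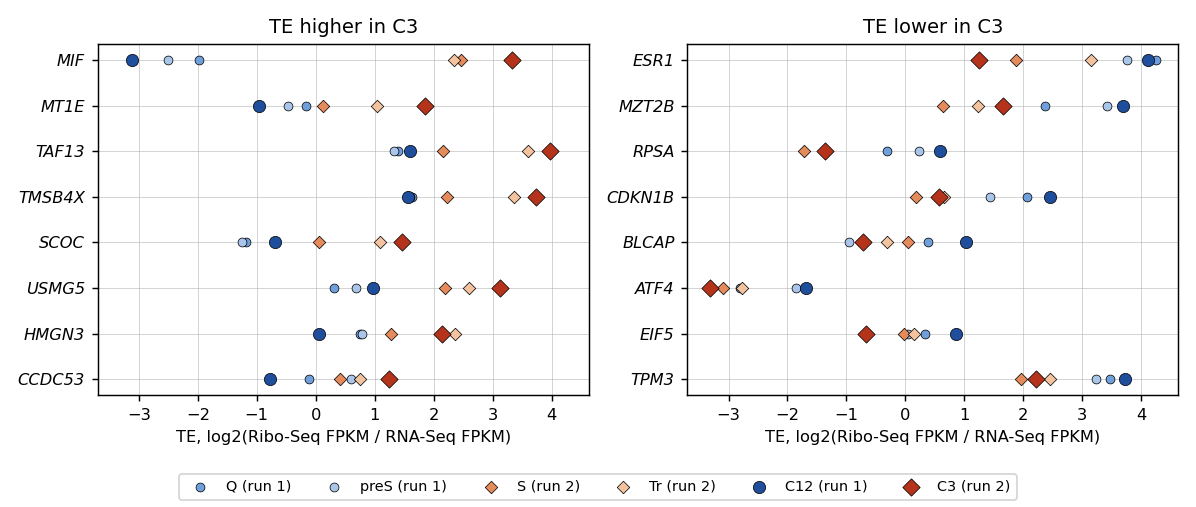
TE, log2 of Ribo-Seq FPKM over RNA-Seq FPKM, in the 6 columns for the 8 transcripts with the largest higher (left) and the 8 with the largest lower TE in C3 (right); circles are run 1 columns and diamonds run 2 columns. For MIF the run 2 columns lie between 2.35 and 3.32 and the run 1 columns between -3.11 and -1.99, and for ATF4 the Q and Tr columns, of different runs, lie together.

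ESR1, the estrogen receptor, had the largest lower TE, by 2.86 on the log2 scale. Its RNA stood at 19.2 FPKM in C12, 102 in C3, 9.31 in Q, 15.9 in preS, 144 in S and 1.00 in Tr, and its footprints at 332, 242, 177, 214, 532 and 8.84 FPKM. By its name in the study's methods, the inducible construct joins RAS to a tamoxifen-responsive part of this receptor (ERTAM), and the labels give the transformed cells a RASG12V vector with no such name. HRAS, named after its values were seen, stood at 2415 FPKM of RNA in C12, 1284 in C3, 1254 in Q, 2102 in preS, 2087 in S and 312 in Tr, with footprints of 4769 FPKM in C12 and 2058 FPKM in C3. The labels do not say whether C1, C2 and C3 carried the construct. HRAS was 1.88-fold lower in C3 in RNA-Seq and 2.32-fold lower in Ribo-Seq, so it was called in Ribo-Seq alone.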

How the data were processed

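RNA-Seq and Ribo-Seq libraries of BJ cells were sequenced by the authors. They aligned reads with Bowtie to 1 protein-coding transcript per gene (the submitters' notes name hg19), kept uniquely mapped reads and deposited FPKM values, over the whole transcript for RNA-Seq and the coding sequence for Ribo-Seq, with values below 1 set to 1. C1 and C2 are pooled in the authors' column. The table holds 12 value columns, and read counts per transcript cannot be recovered from FPKM alone. The study lists reads per sample, but these were not used, so no counting interval is given. From these values log2 ratios were computed with Python 3.11.15, numpy 2.4.6 and pandas 2.3.3, after a filter of 10 FPKM in the higher culture in each assay (all 4 values for TE), with calls at 2-fold. No test was possible. The scripts were tested on simulated data. Members of 47 gene lists, and the lists themselves, were chosen with earlier results of these data known. Genes were named by rule: the 12 largest agreeing differences each way, up to 4 called and the first 3 detected genes of each list, and the 8 largest TE differences each way; others are said to be named after their values were seen, and list members are also named where they complete a count. Alternatives covered the fold, scaling, floor, filter and the label of the C3 Ribo-Seq sample. A planned check against transcript length was not run, because transcript lengths were not at hand. Some genes are counted in their lists and not reported by name here. Promoters came from RefSeq (GRCh38.p14), and motifs were searched in the 250 bases before the start.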

Additional observations from a re-analysis of the deposited data

How the results depend on the processing

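The calls in both assays were 192 higher and 94 lower, with 253 and 160 in RNA-Seq, 463 and 422 in Ribo-Seq and 107 and 50 in TE. In the same order of both assays, RNA-Seq, Ribo-Seq and TE, a fold of 1.5 gave 453, 606, 980 and 425 higher and 560, 864, 1175 and 321 lower, and a fold of 3 gave 70, 101, 152 and 14 higher and 12, 21, 82 and 6 lower. No level filter gave 330, 471, 1003 and 565 higher and 167, 290, 797 and 375 lower. A filter of 30 FPKM gave 98, 129, 203 and 36 higher and 51, 79, 170 and 15 lower. A pseudocount of 5 in place of the floor gave 126 higher and 38 lower in both assays, 160 and 68 in RNA-Seq, 242 lower in Ribo-Seq, and 68 and 27 in TE. A geometric mean filter gave 124 higher in both, and centring 62 lower in both. The other counts over all transcripts stayed within 1.5 times. Within the lists, 14 counts were marked as moved with the pseudocount (74 the same) and 8 with centring (80 the same). Among the ratios of named genes, 63 were marked as moved with the pseudocount and 593 as the same. KRT19 turned to a TE ratio of 0.25 with the pseudocount, and the Ribo-Seq median of the cytokines to 0.68 without a filter. The fewer or more transcripts tested follow from the filters, and the other causes were not tested.

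Taking the S.rp column, which the condition label calls proliferating, in place of C3.rp gave 115 higher in both assays. Ribo-Seq medians then turned to -0.35 (IGF-binding proteins), -0.70 (collagens), -0.24 (fibroblast markers) and -0.82 (epithelial markers). Ribo-Seq log2 ratios turned to -0.61 (SULF1), 2.01 (MMP3), -2.30 (HIST1H2BJ, TE -1.70), 3.31 (GDF15), 1.01 (DUSP4), -0.52 (IGFBP6), -2.13 (IGFBP3), -0.60 (IGFBP5), -0.77 (COL3A1), -2.25 (COL1A1), -0.99 (CTHRC1), -0.50 (DCN), -1.04 (LMOD1), -1.41 (DKK1), 1.48 (IFI6), 0.013 (BLCAP, TE 0.15), -0.91 (CRABP2), -1.06 (ALDH1A1), 1.14 (TERT), -0.30 (C1S) and -1.88 (MASP1), and TE ratios to -0.72 (LAMA5) and -1.32 (LUM). The alternative replaces C3 by another column, which accounts for these turns.

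No paired analysis was possible because C1 and C2 share 1 pooled column, and no replicate was left out for the same reason. The study lists reads per sample, but these were not used here, and counting error is not given.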

Other observations

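The gene groups in this part were put together after the values were seen, so their counts describe and do not support a pattern. The gene lists of the Results carry a like limit, since they were chosen with earlier results of these data known. Of all transcripts compared, 3.41% were called higher in both assays. Retinoid genes were higher in C3 in 3 of the 4 that passed the level filter. CRABP2, which carries retinoic acid to the nucleus, stood at 37.4 FPKM in C12 and 403 FPKM in C3 in RNA-Seq, and at 79.6 and 1159 FPKM in Ribo-Seq. RDH10 and ALDH1A1, enzymes that make retinoic acid from retinol, had log2 ratios of 3.24 and 3.13 in RNA-Seq and 3.49 and 2.53 in Ribo-Seq. Complement genes were higher in 5 of 8 (C1S, SERPING1, CD59, CLU and MASP1), with medians of 1.60 and 1.19. B2M, the light chain of MHC class I, stood at 177 and 471 FPKM in RNA-Seq and at 847 and 1789 FPKM in Ribo-Seq, and HLA-B, which has close paralogues and is uncertain under unique mapping, at 49.8 and 158 FPKM in RNA-Seq.

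Of 41 splicing and mRNA export genes, 35 lay below C12 in both assays, 9 were called lower and SNRPG was called higher, with medians of -0.62 and -0.66. Among all transcripts compared, 44.6% lay below C12 in both and 1.67% were called lower. SNRPA, a U1 snRNP protein, stood at 72.3 FPKM in C12 and 33.6 FPKM in C3 in RNA-Seq. TERT, the transgene used for immortalization, stood at 9.91 and 4.29 FPKM in RNA-Seq and did not pass the filter.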
